A study of Mus musculus with 10 samples.

Results

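The genes described here are 37 transcripts known as markers of cells that live in skeletal muscle beside its stem cells: endothelial, immune, fibroblast, tendon, mural, Schwann and red blood cells. They were chosen by name, with earlier results of these data known, so counts set beside all genes describe them and are no independent test. Of the 37, 32 had a value among the 12803 genes measured by RNA sequencing in 10 mouse libraries. Ptprc, Cd52, Tyrobp, S100b and Sox10 were not analysed here, which leaves 10 of 10 endothelial, 2 of 5 immune, 7 of 7 fibroblast, 4 of 4 tendon, 7 of 7 mural, 1 of 3 Schwann and 1 of 1 red cell marker.

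The libraries came from muscle stem cells of young male C57BL/6 mice, sorted as negative for CD45, CD31 and Sca1 and positive for VCAM, with 1 animal behind each replicate. 4 libraries came from cells kept for 24 h in medium that held Tubastatin A at 40 µM, dissolved in DMSO (Tubastatin A cultures). Tubastatin A blocks the deacetylase HDAC6. 3 came from cells kept for 24 h with DMSO alone (vehicle cultures), and 3 from cells taken straight after the sort, at 0 h (fresh cells). Both cultures were in Ham's F-10 with 10% horse serum on coated plates. Each library was made from 5 ng of RNA and held 37558788 to 55328668 reads in the genes of the table.

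Muscle stem cells lie between the fibre and its basal lamina and are isolated from digested muscle by flow cytometry. Endothelial cells line capillaries, mural cells (pericytes and smooth muscle) wrap vessels, fibroblasts and tendon cells make matrix, Schwann cells ensheathe nerves, and macrophages patrol the tissue. A marker of one of these cells can also be transcribed by the stem cell itself, so a level here is a property of the sorted population. In such bulk libraries, fewer cells of a type and less RNA per cell cannot be told apart. Pecam1 encodes CD31 and Ptprc encodes CD45, so the sort acted on the proteins of 2 of the 37 genes. Of the other sort antigens, Ly6a (Sca1) averaged 0.207 ± 0.154 RPKM (reads per kilobase of transcript, scaled to library size) in Tubastatin A cultures, 0.286 ± 0.117 RPKM in vehicle cultures and 9.98 ± 5.87 RPKM in fresh cells (SD; n = 4, 3 and 3, as in every mean below). Vcam1 averaged 4.36 ± 0.417 RPKM in Tubastatin A cultures, 34.04 ± 2.24 RPKM in vehicle cultures and 180 ± 13.7 RPKM in fresh cells.

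Most markers were present in the fresh cells and near the bottom of the range after a day of culture. A mean of at least 1 RPKM was reached by 10 of the 32 in Tubastatin A cultures, 8 in vehicle cultures and 30 in fresh cells, against 77.1%, 76.1% and 80.1% of all genes in the same order of groups. The median marker had 0.281 RPKM in Tubastatin A cultures, 0.189 RPKM in vehicle cultures and 4.48 RPKM in fresh cells. In 24 of the 32, every fresh library lay above all 7 cultured ones, as in 23.3% of all genes. The exceptions were Cd68, Pdgfra, Cd55, Scx, Mkx, Acta2, Cspg4 and Tagln. For markers near the floor in culture, presence in the table can rest on fresh cells alone. Ly6c1, for example, had 3 reads over the vehicle libraries and 1730 over the fresh ones. The direction of such a marker is then set by its presence, so these counts beside all genes only describe.

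**Figure D1:**
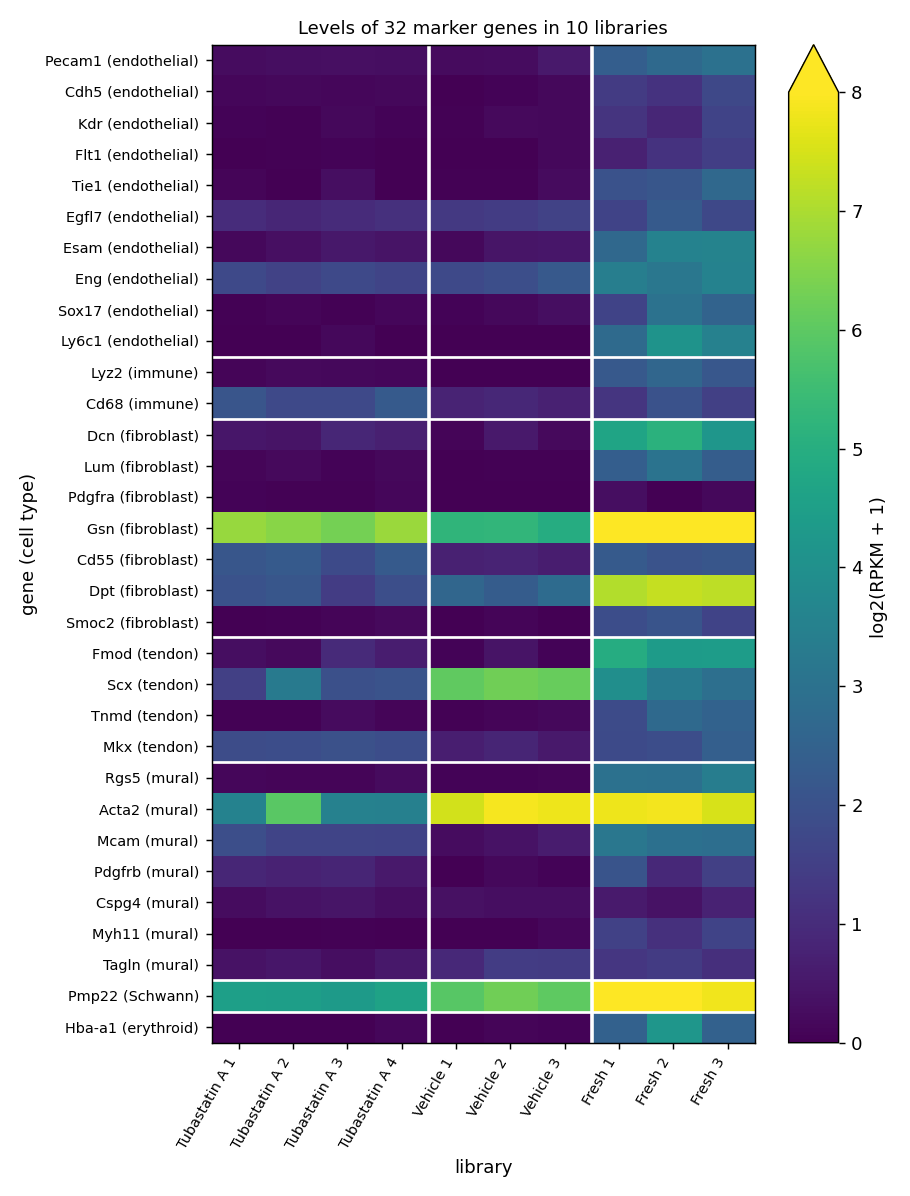
Heat map of log2(RPKM + 1) for each measured marker (rows, by the cell type it marks) in each library (columns: Tubastatin A, vehicle, fresh); colours stop at 8, and white lines part the groups and cell types. Most rows are dark in the 7 cultures and lighter in the fresh libraries, and Gsn, with 1423, 1375 and 1288 RPKM in fresh cells, is the highest marker.

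Differences were tested on log2(RPKM + 1) with limma over all genes, and a gene was called at a Benjamini-Hochberg adjusted p under 0.05. This scale understates the change of genes below about 1 RPKM, so ratios of mean RPKM are given beside it for some genes. In vehicle cultures against fresh cells, 29 of the 32 markers were called, 28 lower and 1, Scx, higher, where 67% of all genes were called, 35% lower and 32% higher. The median change was -1.89 (log2) for the markers and -0.03 for all genes, and the 28 markers called lower were also those whose libraries did not overlap (35.8% of all genes). Tubastatin A cultures against fresh cells gave 28 markers called, each lower, where 64.9% of all genes were called, 35.2% lower and 29.8% higher, with a median of -1.98 beside -0.03 for all genes. The libraries of 26 markers lay wholly below the fresh ones, as did those of 33.3% of all genes. Tubastatin A against vehicle cultures gave 6 markers higher and 6 lower, where 29.6% and 29.7% of all genes were called higher and lower. In all, 12 of the 32 were called between the cultures, beside 59.3% of all genes. Libraries of the cultures did not overlap for 10 markers higher and 6 lower with Tubastatin A, beside 34.8% and 33.8% of all genes. Of the 10, Lyz2, Lum, Pdgfra and Rgs5 were not called. With a pseudocount of 0.1 in place of 1, Lyz2 and Lum were called, and Pdgfra and Rgs5 were still not. Vehicle cultures enter 2 of these comparisons and fresh cells enter 2, so the comparisons are not independent. The limit given above for markers near the floor in culture holds for both comparisons with fresh cells.

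The shift between fresh and cultured libraries depends in part on scaling. Reads in the table stood at 1.39 to 1.41 times the library size the RPKM values imply in fresh libraries, and at 0.83 to 0.93 times in cultured ones. With scaling by the reads in the table instead, the median of all genes moved by 0.50 (log2) in vehicle against fresh and by 0.56 in Tubastatin A against fresh. All genes then split into 6362 higher and 2906 lower in vehicle against fresh, in place of 4096 and 4484, and into 6913 higher and 2593 lower in Tubastatin A against fresh, in place of 3811 and 4503. The markers split under that scaling into 2 higher and 25 lower in vehicle against fresh, and into 3 higher and 25 lower in Tubastatin A against fresh. Transcripts of the stem cells moved as well: 10 stem cell markers, among them Vcam1, summed to 291 to 312 RPKM in Tubastatin A cultures, 475 to 497 RPKM in vehicle cultures and 2502 to 3000 RPKM in fresh cells. Of these 10, 8 were lower and 1, Cdh2, was higher in vehicle than in fresh cells, beside 35% and 32% of all genes. Itga7 was not called, at 0.07 ± 0.25 (adjusted p = 0.81). Between the cultures 7 were lower and 2, Chrdl2 and Calcr, higher with Tubastatin A, beside 29.7% and 29.6% of all genes. Sdc4 had the largest share of the sum, at 165 RPKM in Tubastatin A cultures, 169 RPKM in vehicle cultures and 1143 RPKM in fresh cells. Cdh2, Itga7, Chrdl2, Calcr and Sdc4 are named after their values were seen.

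**Figure D2:**
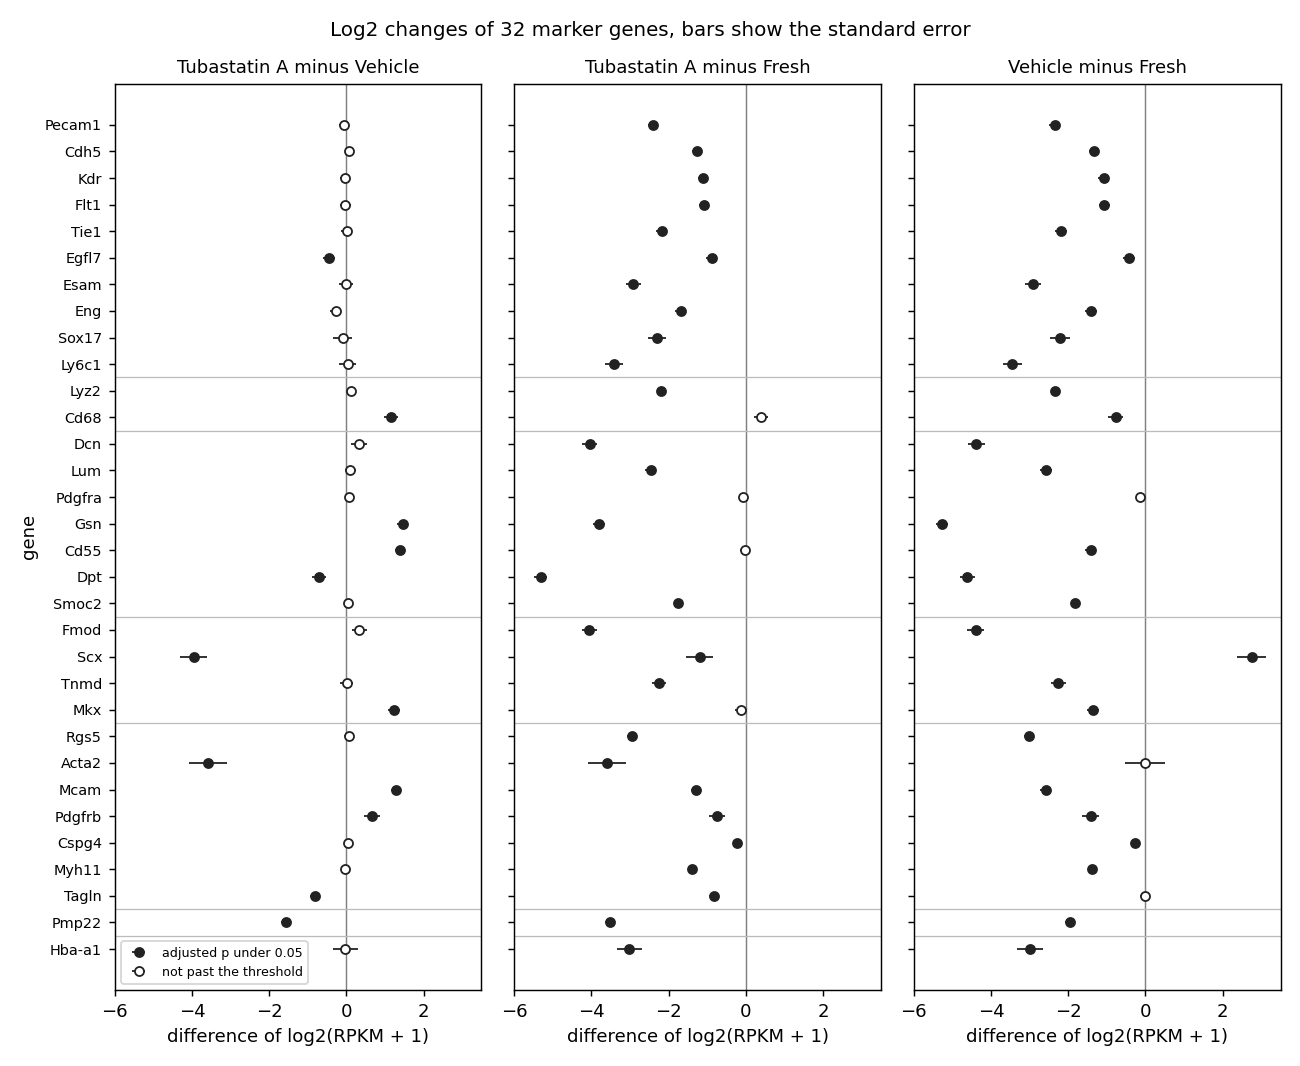
Difference in log2(RPKM + 1) of each marker (points) with its standard error (bars), from limma, with 1 panel a comparison; filled points are called at an adjusted p under 0.05. Both comparisons with fresh cells lie mostly left of 0, down to -5.26 for Gsn in vehicle and -5.31 for Dpt in Tubastatin A cultures, and the comparison between cultures is centred near 0.

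All 10 endothelial markers were lower in each culture than in fresh cells, with no overlap between libraries. Over all genes, 35% were called lower in vehicle and 35.2% in Tubastatin A cultures. Libraries lay wholly below the fresh ones for 35.8% and 33.3% of all genes. Between the cultures 1 of the 10 was called, beside 59.3% of all genes. Pecam1, the adhesion molecule CD31 that the sort selects against, had 0.190, 0.240, 0.248 and 0.240 RPKM in Tubastatin A cultures, 0.181, 0.214 and 0.448 RPKM in vehicle cultures, and 4.19, 5.69 and 6.96 RPKM in fresh cells. The fresh libraries stood 20.0 times above vehicle in the mean, and the log2 change was -2.35 ± 0.14 (SE, adjusted p = 4.7e-08). Between the cultures Pecam1 gave -0.05 ± 0.13 (adjusted p = 0.76). Ly6c1, a surface protein of capillary endothelium and some monocytes, was at 0, 0, 9 and 1 reads in Tubastatin A cultures, 1 read in each vehicle culture, and 381, 802 and 547 reads in fresh cells. Its change was -3.44 ± 0.24 in vehicle against fresh (adjusted p = 1.7e-07), a direction that its presence through fresh cells can set. Of its 150-base windows, 5.61% also occur in Ly6c2.

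The angiogenic receptors were among the lower endothelial markers in fresh cells. The mean of Kdr, a receptor for VEGF, was 0.0727 RPKM in Tubastatin A cultures, 0.105 RPKM in vehicle cultures and 1.38 RPKM in fresh cells. Flt1, another VEGF receptor, averaged 0.0251 RPKM in Tubastatin A cultures, 0.0464 RPKM in vehicle cultures and 1.23 RPKM in fresh cells. Vehicle replicate 3 carried most of the Flt1 reads of that group, at 75 beside 1 and 8. Kdr and Flt1 both fell in vehicle, by 1.08 and 1.06 on the log2 scale. Tie1, an endothelial receptor tyrosine kinase, averaged 0.0806 RPKM in Tubastatin A cultures, 0.0724 RPKM in vehicle cultures and 3.99 RPKM in fresh cells. In vehicle replicates 1 to 3 Tie1 had 0.0254, 0.0237 and 0.168 RPKM. Cdh5, the cadherin of endothelial junctions, averaged 0.113 RPKM in Tubastatin A cultures, 0.0662 RPKM in vehicle cultures and 1.73 RPKM in fresh cells. Tie1 and Cdh5 were called lower in each culture than in fresh cells and were not called between the cultures. Esam, another junction protein, averaged 0.289 RPKM in Tubastatin A cultures, 0.299 RPKM in vehicle cultures and 9.06 RPKM in fresh cells. Sox17, an arterial transcription factor, averaged 0.0572 RPKM in Tubastatin A cultures, 0.131 RPKM in vehicle cultures and 4.63 RPKM in fresh cells. Over the 10 endothelial markers, vehicle replicates 1 to 3 summed to 4.30, 5.43 and 7.32 RPKM.

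Eng and Egfl7 kept more of their fresh level. Eng, a TGF-beta co-receptor, had 2.43, 2.01, 2.42 and 2.10 RPKM in Tubastatin A cultures, 2.38, 2.75 and 3.70 RPKM in vehicle cultures, and 9.60, 7.93 and 10.8 RPKM in fresh cells. Egfl7, a secreted endothelial protein, had 1.02, 0.821, 0.962 and 1.15 RPKM in Tubastatin A cultures, 1.48, 1.71 and 1.99 RPKM in vehicle cultures, and 2.07, 3.77 and 2.36 RPKM in fresh cells. Its 3 groups did not overlap, and it was the endothelial marker called between the cultures, at -0.45 ± 0.15 (adjusted p = 0.019), while vehicle against fresh gave -0.43 ± 0.16 (adjusted p = 0.029). Both calls were close to the threshold. Vehicle against fresh missed it without vehicle replicate 1 (-0.37), vehicle replicate 2 (-0.43) or fresh replicate 2 (-0.24), and between the cultures it missed without Tubastatin A replicate 2 (-0.41), vehicle replicate 2 (-0.46) or vehicle replicate 3 (-0.39). Vehicle against fresh for Egfl7 was -0.33 with equal library medians (adjusted p = 0.121) and -0.02 with scaling by reads in the table (adjusted p = 0.921). Egfl7 shares 64 exon bases with Agpat2 and Eng shares 61 with Fpgs, each on the opposite strand, and whether counting used strand is not given in the sources used here.

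Both measured immune markers fell in vehicle cultures, and they stood apart in Tubastatin A cultures. Lyz2, the lysozyme of macrophages and neutrophils, had 6, 11, 7 and 6 reads in Tubastatin A cultures, 0, 1 and 1 reads in vehicle cultures, and 194, 205 and 142 reads in fresh cells. Its change was -2.33 ± 0.11 in vehicle against fresh (adjusted p = 8e-09) and 0.13 ± 0.11 between the cultures (adjusted p = 0.34). Its presence among the measured genes can rest on fresh cells, which would set the direction against fresh. The difference between cultures passed under 3 alternatives: 0.84 with a pseudocount of 0.1 (adjusted p = 0.00536), 2.68 with voom on recovered reads (adjusted p = 0.0132), and 0.13 with only the 2 groups in the fit (adjusted p = 0.0201). All rest on those few reads.

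Cd68, a lysosomal protein abundant in macrophages, had 3.29, 2.37, 2.39 and 3.80 RPKM in Tubastatin A cultures, 0.730, 0.873 and 0.675 RPKM in vehicle cultures, and 1.34, 3.04 and 1.84 RPKM in fresh cells. Every Tubastatin A library lay above every vehicle library and among or above the fresh ones. Tubastatin A against vehicle gave 1.16 ± 0.18 (adjusted p = 2.1e-04), vehicle against fresh -0.77 ± 0.20 (adjusted p = 0.0044), and Tubastatin A against fresh 0.39 ± 0.18 (adjusted p = 0.085). That last value passed without fresh replicate 2, at 0.60 (adjusted p = 0.0063). With scaling by reads in the table Cd68 gave -0.42 in vehicle against fresh (adjusted p = 0.0582) and 0.85 for Tubastatin A relative to fresh (adjusted p = 0.000785).

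Of the 7 fibroblast markers, 6 fell in vehicle and 5 in Tubastatin A cultures against fresh cells, beside 35% and 35.2% of all genes. Gsn, an actin-severing protein abundant in fibroblasts and also made by many other cells, had 107, 93.7, 78.6 and 110 RPKM in Tubastatin A cultures, 36.7, 37.4 and 29.9 RPKM in vehicle cultures, and 1423, 1375 and 1288 RPKM in fresh cells. The 3 groups did not overlap. Its fresh mean was 39.3 times the vehicle mean, a log2 change of -5.26 ± 0.15 (adjusted p = 1.6e-10), and Tubastatin A cultures stood above vehicle by 1.46 ± 0.14 (adjusted p = 4.8e-06). Dpt, a matrix protein of connective tissue, had 3.05, 3.45, 1.65 and 2.80 RPKM in Tubastatin A cultures, 5.22, 3.99 and 5.90 RPKM in vehicle cultures, and 134, 157 and 145 RPKM in fresh cells. Dpt was lower with Tubastatin A than with vehicle, by -0.71 ± 0.17 (adjusted p = 0.0043), the opposite direction to Gsn.

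Dcn and Lum, small leucine-rich proteoglycans that bind collagen, fell together. Dcn had 0.393, 0.349, 0.806 and 0.625 RPKM in Tubastatin A cultures, 0.0714, 0.464 and 0.153 RPKM in vehicle cultures, and 24.3, 33.6 and 17.5 RPKM in fresh cells. Lum averaged 0.0992 ± 0.0380 RPKM in Tubastatin A cultures, 0.0234 ± 0.0170 RPKM in vehicle cultures and 5.25 ± 1.82 RPKM in fresh cells. Their changes in vehicle against fresh were -4.38 ± 0.21 and -2.57 ± 0.15 (adjusted p = 7.9e-09 and 4.2e-08). Lum was near the floor in vehicle, so its presence through fresh cells can set that direction. Smoc2, a secreted calcium-binding matrix protein, averaged 0.0650 RPKM in Tubastatin A cultures, 0.0328 RPKM in vehicle cultures and 2.66 RPKM in fresh cells, a change of -1.81 ± 0.11 in vehicle against fresh (adjusted p = 4e-08). Between the cultures, neither Dcn nor Lum was called at the pseudocount of 1. With a pseudocount of 0.1, Tubastatin A stood above vehicle by 1.09 for Dcn (adjusted p = 0.0285) and 0.68 for Lum (adjusted p = 0.038). With voom on recovered reads the values were 1.58 for Dcn (adjusted p = 0.0444) and 2.51 for Lum (adjusted p = 0.0432), and with only the 2 groups in the fit Dcn gave 0.33 (adjusted p = 0.0497).

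Pdgfra and Cd55 departed from that pattern. Pdgfra, the receptor that defines fibro-adipogenic progenitors, was low in all groups, with 35, 25, 10 and 56 reads in Tubastatin A cultures, 2, 5 and 2 reads in vehicle cultures, and 86, 2 and 39 reads in fresh cells. Fresh replicate 2 was as low as the vehicle cultures, and no comparison was called, with adjusted p = 0.097 in vehicle against fresh. Without that library vehicle against fresh passed, at -0.22 (adjusted p = 0.011). With all libraries it also passed with a pseudocount of 0.1, at -0.89 (adjusted p = 0.0478), and with voom on recovered reads, at -3.14 (adjusted p = 0.0473). Cd55, an inhibitor of complement on the cell surface, had 3.44, 3.82, 2.46 and 3.80 RPKM in Tubastatin A cultures, 0.661, 0.755 and 0.570 RPKM in vehicle cultures, and 3.77, 3.11 and 3.41 RPKM in fresh cells. The vehicle cultures were the low group, by -1.41 ± 0.14 against fresh (adjusted p = 3e-06), and Tubastatin A cultures stood above vehicle by 1.39 ± 0.13 (adjusted p = 3.4e-06). Tubastatin A against fresh gave -0.03 ± 0.13 (adjusted p = 0.87), which became 0.49 (adjusted p = 0.00355) with scaling by reads in the table.

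The 4 tendon markers split. Fmod and Tnmd, a proteoglycan of tendon collagen and a tendon membrane protein, were low in both cultures. Fmod had 0.223, 0.163, 0.942 and 0.561 RPKM in Tubastatin A cultures, 0.0504, 0.346 and 0.0472 RPKM in vehicle cultures, and 29.9, 20.1 and 20.2 RPKM in fresh cells (vehicle against fresh -4.40 ± 0.21, adjusted p = 7.2e-09). Between the cultures Fmod gave 0.34 ± 0.20 (adjusted p = 0.16), and 1.20 (adjusted p = 0.0499) with a pseudocount of 0.1. Tnmd averaged 0.0821 RPKM in Tubastatin A cultures, 0.0772 RPKM in vehicle cultures and 4.32 RPKM in fresh cells. Mkx, a homeobox factor of tendon development, had 2.65, 2.73, 2.98 and 2.75 RPKM in Tubastatin A cultures, 0.580, 0.787 and 0.463 RPKM in vehicle cultures, and 2.48, 2.72 and 4.41 RPKM in fresh cells. As for Cd55, the vehicle group was the low one: Tubastatin A stood above vehicle by 1.23 ± 0.15 (adjusted p = 2.2e-05), and against fresh it gave -0.13 ± 0.15 (adjusted p = 0.47), or 0.38 (adjusted p = 0.033) with scaling by reads in the table.

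Scx, the transcription factor that specifies tendon progenitors, was the marker called higher in vehicle cultures. It had 1.85, 8.71, 2.88 and 3.13 RPKM in Tubastatin A cultures, 65.7, 75.6 and 70.2 RPKM in vehicle cultures, and 14.5, 8.89 and 6.64 RPKM in fresh cells. Vehicle cultures stood 7.04 times above fresh cells (2.76 ± 0.37, adjusted p = 3.9e-05) and 17.0 times above Tubastatin A cultures (-3.96 ± 0.35 for Tubastatin A against vehicle, adjusted p = 1.9e-06). Tubastatin A against fresh gave -1.20 ± 0.35 (adjusted p = 0.0098), with overlapping libraries, and -0.62 (adjusted p = 0.13) with scaling by reads in the table. Scx (chr15:76457452-76459458, GENCODE M21, plus strand) lies within Bop1, a ribosome biogenesis gene on the opposite strand, with 0 exon bases shared. Bop1 averaged 72.0 RPKM in Tubastatin A cultures, 136 RPKM in vehicle cultures and 44.6 RPKM in fresh cells, so it was also highest in vehicle. The ratio of Scx to Bop1 was 0.0263 to 0.120 in Tubastatin A cultures, 0.469 to 0.558 in vehicle cultures and 0.153 to 0.310 in fresh cells. The part of Bop1 transcripts in the Scx values was not tested.

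Among the 7 mural markers, 5 fell in vehicle and 7 in Tubastatin A cultures against fresh cells, beside 35% and 35.2% of all genes. Acta2 and Tagln were the 2 not called in vehicle. Acta2, the actin of smooth muscle (chr19:34241090-34255590, GENCODE M21, minus strand), had 10.7, 60.8, 10.4 and 10.3 RPKM in Tubastatin A cultures, 174, 239 and 223 RPKM in vehicle cultures, and 220, 233 and 183 RPKM in fresh cells. Vehicle cultures and fresh cells overlapped, and every Tubastatin A library lay below both. Tubastatin A against vehicle gave -3.59 ± 0.49 (adjusted p = 6.3e-05), and vehicle against fresh gave -0.00 ± 0.52 (adjusted p = 1). Tagln, a smooth muscle actin-binding protein, showed the same order of groups at a lower level, with 0.298, 0.411, 0.233 and 0.436 RPKM in Tubastatin A cultures, 0.912, 1.67 and 1.59 RPKM in vehicle cultures, and 1.42, 1.64 and 1.10 RPKM in fresh cells. Its change was -0.82 ± 0.13 in Tubastatin A against vehicle (adjusted p = 1.8e-04). Vehicle against fresh gave -0.01 ± 0.14 for Tagln (adjusted p = 0.98), and 0.33 (adjusted p = 0.045) with scaling by reads in the table. Tagln shares 108 exon bases with Pcsk7 and 1241 with the antisense gene Gm48529. Myh11, the smooth muscle myosin heavy chain, averaged 0.0140 RPKM in Tubastatin A cultures, 0.0312 RPKM in vehicle cultures and 1.71 RPKM in fresh cells, and so was low in vehicle where Acta2 was not. Vehicle replicate 3 held 31 Myh11 reads, and vehicle replicates 1 and 2 held 0.

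Contractile genes are known targets of serum response factor, which binds the CArG box, a motif of CC, 6 bases that are each A or T, and GG. RefSeq promoter windows on GRCm38.p6, from 250 bases before to 50 after the gene start, were found for 20 of the 32 markers, among them 4 mural ones. The full motif, which reads alike on both strands, occurred in 1.63% of 32851 windows and in 0 of the 4. A search that let 1 of the 6 inner bases differ, chosen after the first result was seen, matched 9.98% of all windows and 1 of the 4, Acta2, with matches starting 84 and 34 bases before the gene start. Both are shown with 10 bases on each side because Acta2 is the contractile marker with the largest difference between the cultures, and capitals mark the match. GENCODE M21 places the Acta2 start further upstream, and each stretch shown overlaps a part of the gene that it annotates as untranslated. The core CCGGAA of ETS factors, searched on both strands, occurred in 14.9% of windows and in 1 of the 6 endothelial markers with a window, Kdr. These matches describe the windows and no binding was measured.
Acta2, chr19:34255438-34255467, minus strand: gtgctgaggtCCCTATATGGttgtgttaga
Acta2, chr19:34255388-34255417, minus strand: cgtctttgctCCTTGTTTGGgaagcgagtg

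Tubastatin A replicate 2 stood apart in Acta2, at 60.8 RPKM, and in Scx, at 8.71 RPKM. All 13 measured markers of muscle fibres were highest in that library among the Tubastatin A cultures, and they summed to 22.9, 452, 20.1 and 19.9 RPKM in Tubastatin A replicates 1 to 4, 34.4, 43.4 and 30.8 RPKM in vehicle cultures, and 311, 199 and 258 RPKM in fresh cells. Single genes carried much of these sums: Acta1 had 311 RPKM in Tubastatin A replicate 2, and Actn3 had 188 RPKM in fresh replicate 1. Some differed little, as Pvalb, at 0.468 RPKM in Tubastatin A replicate 2 and 0.400 RPKM in replicate 1. Without Tubastatin A replicate 2, Acta2 gave -4.20 ± 0.15 against vehicle (adjusted p = 1.96e-08) and Scx gave -4.32 ± 0.24 (adjusted p = 1.93e-07), so both differences were as large without the library. Of the 32 markers, 7 were highest in that library, beside 3, 12 and 10 in Tubastatin A replicates 1, 3 and 4.

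Mcam, Pdgfrb, Rgs5 and Cspg4 were lower in vehicle cultures than in fresh cells, and 2 of them, Mcam and Pdgfrb, were higher with Tubastatin A than with vehicle. Mcam, the adhesion molecule CD146 of pericytes and endothelium, had 2.82, 2.10, 2.13 and 2.03 RPKM in Tubastatin A cultures, 0.199, 0.30 and 0.533 RPKM in vehicle cultures, and 8.0, 6.78 and 6.39 RPKM in fresh cells. The groups did not overlap, and Tubastatin A stood above vehicle by 1.28 ± 0.13 (adjusted p = 6e-06) and below fresh by -1.30 ± 0.13 (adjusted p = 3.8e-06). Pdgfrb, the receptor that recruits pericytes to vessels, had 0.799, 0.695, 0.786 and 0.468 RPKM in Tubastatin A cultures, 0.0190, 0.132 and 0.0530 RPKM in vehicle cultures, and 3.24, 0.890 and 1.87 RPKM in fresh cells. Its difference between the cultures was 0.66 ± 0.21 (adjusted p = 0.016), and it missed the threshold without vehicle replicate 1 (0.62, adjusted p = 0.052) or with a pseudocount of 5 (0.17, adjusted p = 0.113). Against fresh cells Pdgfrb with Tubastatin A gave -0.76 ± 0.21 (adjusted p = 0.0065), and -0.39 (adjusted p = 0.083) with scaling by reads in the table. Rgs5, a regulator of G protein signalling in pericytes, averaged 0.109 RPKM in Tubastatin A cultures, 0.0599 RPKM in vehicle cultures and 7.69 RPKM in fresh cells. Rgs5 was called in both comparisons with fresh cells and not between the cultures, at 0.06 ± 0.11 (adjusted p = 0.65). Cspg4, the proteoglycan NG2, was low throughout, at 0.273 ± 0.0833 RPKM in Tubastatin A cultures, 0.245 ± 0.0254 RPKM in vehicle cultures and 0.509 ± 0.202 RPKM in fresh cells. Its calls against fresh cells (adjusted p = 0.028 in vehicle and 0.037 with Tubastatin A) were close to the threshold. The vehicle call was lost without vehicle replicate 2 (-0.26), vehicle replicate 3 (-0.26) or fresh replicate 3 (-0.17). The Tubastatin A call was lost without Tubastatin A replicate 1 (-0.21) or 4 (-0.22), or fresh replicate 1 (-0.24) or 3 (-0.14). With scaling by reads in the table Cspg4 gave -0.10 for vehicle and -0.05 for Tubastatin A, neither called.

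Pmp22, a myelin protein of Schwann cells that other cells also make, was lower in vehicle cultures than in fresh cells, and lower again in Tubastatin A than in vehicle cultures. It had 21.9, 21.4, 19.6 and 23.3 RPKM in Tubastatin A cultures, 59.2, 75.4 and 63.4 RPKM in vehicle cultures, and 266, 284 and 227 RPKM in fresh cells. The 3 groups did not overlap. Vehicle against fresh gave -1.96 ± 0.13 (adjusted p = 1e-07) and Tubastatin A against vehicle -1.57 ± 0.12 (adjusted p = 7.3e-07).

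Hba-a1, an alpha globin of red cells, had 0, 0, 0 and 4 reads in Tubastatin A cultures, 0, 3 and 2 reads in vehicle cultures, and 148, 417 and 117 reads in fresh cells. Fresh replicate 2 held the most, at 17.4 RPKM, beside 4.63 and 4.64 RPKM in the other fresh libraries. Vehicle against fresh gave -2.99 ± 0.34 (adjusted p = 1e-05), a direction that the presence of Hba-a1 through fresh cells can set. Of its 150-base windows, 48.4% also occur in Hba-a2, so reads could be split between both genes. Hba-a2 averaged 0.0271 RPKM in Tubastatin A cultures, 0.0891 RPKM in vehicle cultures and 5.82 RPKM in fresh cells.

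**Figure D3:**
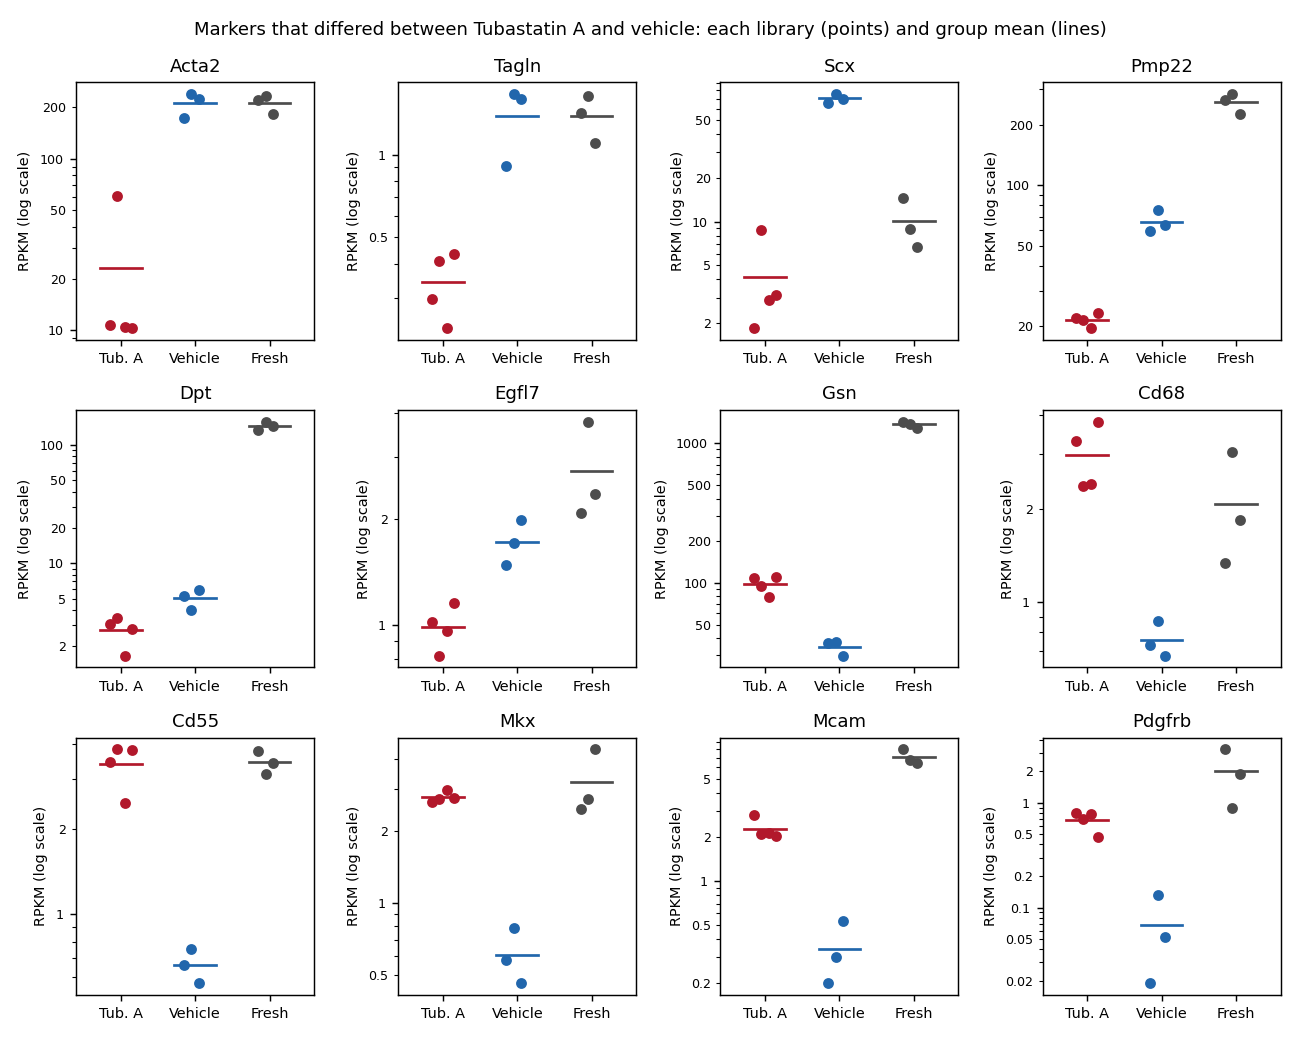
RPKM (log scale) of the 12 markers called between Tubastatin A and vehicle cultures, with each library as a point and the group mean as a line. Acta2, Tagln, Scx, Pmp22, Dpt and Egfl7 are lower with Tubastatin A and Gsn, Cd68, Cd55, Mkx, Mcam and Pdgfrb higher, and Tubastatin A replicate 2 is the high Acta2 point at 60.8 RPKM.

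Across all 3 comparisons, 19 of the 32 markers were lower in both cultures than in fresh cells with no call between the cultures: 9 endothelial markers, Lyz2, Dcn, Lum, Smoc2, Fmod, Tnmd, Rgs5, Cspg4, Myh11 and Hba-a1. Gsn, Mcam and Pdgfrb were lower in both cultures than in fresh cells and higher with Tubastatin A than with vehicle. Cd68, Cd55 and Mkx were lower in vehicle than in fresh cells and higher with Tubastatin A than with vehicle, with no call against fresh cells. Egfl7, Dpt and Pmp22 were lower in all 3 comparisons. Acta2 and Tagln were lower with Tubastatin A than in both other groups, with no call between vehicle and fresh.

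Marker levels also differed among the 3 fresh libraries. The 10 endothelial markers summed to 35.9, 57.9 and 58.1 RPKM in fresh replicates 1 to 3, and 7 of them were highest in replicate 3, 3 in replicate 2 and 0 in replicate 1. Over all genes with a fresh mean of at least 1 RPKM, 36.2% were highest in replicate 1, 37.3% in replicate 2 and 26.6% in replicate 3. Replicate 2 was highest for both immune markers, for Hba-a1 and for 4 of the 7 fibroblast markers. Of the 30 markers with a fresh mean of at least 1 RPKM, 9 (30%) had a highest library over 2 times the lowest, as had 17.3% of the 10259 genes above that level. The widest of these were Hba-a1 (3.75 times), Pdgfrb (3.64), Sox17 (3.43), Ly6c1 (2.80) and Flt1 (2.78).

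**Figure D4:**
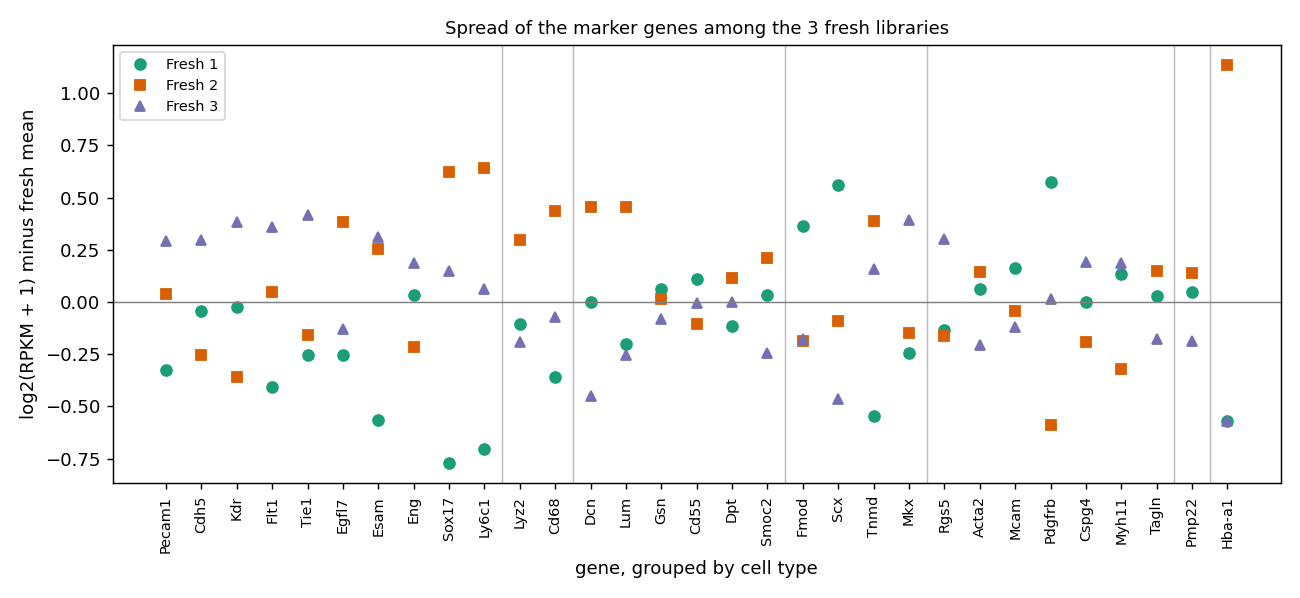
Deviation of each marker from its mean over the 3 fresh libraries, on the log2(RPKM + 1) scale, by cell type, without Pdgfra. The endothelial markers sit highest in fresh replicate 3 (7 of 10) or 2 (3 of 10), and Hba-a1 is highest in replicate 2.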

How the data were processed

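The deposited table holds RPKM values per gene made by the authors, and per the submitters' processing notes the tools were Trim Galore, STAR, featureCounts from Subread and edgeR on mm10, with no versions given. Per the labels' protocols, cDNA came from the SMART-Seq v4 kit, libraries from a NuGEN Ovation kit, and reads were paired, of 150 bases. The table held 12803 genes, 7 repeated symbols among them, none a marker described here. RPKM times GENCODE M21 exon length gave whole reads (within 0.05) in every library for 12217 genes (95.4%) and 30 of 32 markers, not Tie1 and Smoc2. A value under 1 read is a floor set before deposit, and such values (1960 in 619 genes) are given as 0 reads. Tests were limma 3.58.1 (R 4.3.3, trend, 3 groups in 1 model) on log2(RPKM + 1), adjusted over all genes and checked on simulated data. Every marker is named, and of further markers the highest and lowest in vehicle against fresh. The members and lists were chosen with earlier results of these data known. Same-numbered replicates did not deviate together in every pair (correlations -0.19 to 0.39), so no pairing was used. Between Tubastatin A and vehicle, replicates of the same number gave 0.39, 0.03 and 0.31, and those of unlike number -0.38 to 0.11.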

Additional observations from a re-analysis of the deposited data

Results flagged for a closer look

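In 6 of the 32 markers 1 Tubastatin A library lay far from the other 3, with a gap past Dixon's critical value for 4 samples; chance gives about 1 in 20 groups, and 905 of all 12803 genes (7.07%) met the same limit. Pecam1 was lowest in replicate 1, at 0.190 RPKM beside 0.240 to 0.248 RPKM in the others. Acta2 was highest in replicate 2, at 60.8 RPKM beside 10.3 to 10.7 RPKM, and Mcam was highest in replicate 1, at 2.82 RPKM beside 2.03 to 2.13 RPKM. Rgs5 was highest in replicate 4, at 0.177 RPKM (40 reads) beside 0.0777 to 0.0917 RPKM. Ly6c1 was highest in replicate 3, at 0.119 RPKM, and Hba-a1 in replicate 4, at 0.0993 RPKM, on 9 and 4 reads. Over all genes, the far library on the high side was replicate 2 in 266 genes, beside 71, 133 and 144 in replicates 1, 3 and 4.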

How the results depend on the processing

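Of 96 values (32 markers in 3 comparisons), 69 kept their direction and their side of the threshold under every alternative that gave them a value, of 18; voom gave 90 of the 96 values and the filter at a mean of 1 RPKM gave 69. The further markers called between Tubastatin A and vehicle numbered 34, and 19 with a pseudocount of 5. Leaving out 1 library gave 27 to 29 markers in vehicle against fresh, 11 to 12 between cultures and 27 to 29 in Tubastatin A against fresh, and 65 to 67, 23 to 36 and 67 to 68 further markers. With a replicate block, which the reported fit leaves out, 29, 12 and 27 markers were called, and the further markers between cultures were then 28.

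Signs turned in 13 values, each uncalled and near 0 in the reported fit; the cause was not tested. With scaling by reads in the table these became, in Tubastatin A against fresh, 0.49 for Cd55 and 0.38 for Mkx, and in vehicle against fresh 0.60 for Acta2 and 0.33 for Tagln, and Esam between cultures became 0.0143. With equal library medians, vehicle against fresh gave 0.10 for Acta2 and 0.10 for Tagln, Tubastatin A against fresh 0.10 for Cd55 and 0.0515 for Pdgfra, and the cultures 0.0153 for Esam and 0.0001 for Myh11. With voom on recovered reads, vehicle against fresh gave 0.10 for Acta2 and 0.0645 for Tagln, Tubastatin A against fresh 0.0879 for Cd55, and the cultures 0.0163 for Esam, 0.32 for Flt1, -0.40 for Ly6c1, 1.26 for Myh11 and -0.0552 for Tnmd. A pseudocount of 0.1 gave 0.00 for Esam and -0.0028 for Tie1, and one of 5 gave 0.00 for Tagln.

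Leaving out 1 library, the values ranged in vehicle against fresh from -0.11 to 0.13 for Acta2 and from -0.0945 to 0.15 for Tagln, and in Tubastatin A against fresh from -0.0787 to 0.0831 for Cd55 and from -0.25 to 0.0695 for Mkx. Between the cultures they ranged from -0.0036 to 0.0619 for Cspg4, from -0.11 to 0.052 for Esam, from -0.0586 to 0.0246 for Flt1, from -0.008 to 0.0433 for Ly6c1, from -0.0438 to 0.0181 for Myh11, from -0.11 to 0.0385 for Pecam1, from -0.0585 to 0.0716 for Tie1 and from -0.0367 to 0.0417 for Tnmd.

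The planned count test with edgeR or DESeq2 was not run, since the table holds RPKM and no counts. Depth limits the low markers: Ly6c1, Lyz2, Lum, Tnmd, Hba-a1 and Pdgfra rested on under 10 reads in each vehicle library.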

Other observations

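Further markers of the same cell types numbered 98, of which 71 were measured. Their list was also chosen with earlier results known, and presence in the table can again rest on fresh cells, so their counts only describe. In vehicle cultures against fresh cells 64 were lower and 2 higher, beside 35% and 32% of all genes. The median was -1.60 (log2), beside -0.03 for all genes. In Tubastatin A cultures against fresh cells 63 were lower and 4 higher, beside 35.2% and 29.8% of all genes. The higher 2 in vehicle were Podxl, a sialomucin of endothelium, at 1.65 ± 0.18, and Tnc, a matrix glycoprotein of tendon and injured tissue, at 3.25 ± 0.23. Tnc averaged 0.776 RPKM in Tubastatin A cultures, 39.7 RPKM in vehicle cultures and 3.49 RPKM in fresh cells, the same order of groups as Scx. The lowest in vehicle were Egr2, a factor of myelinating Schwann cells that many cells also induce on stimulation (-6.80 ± 0.21), and Vtn, a plasma and pericyte protein (-5.94 ± 0.15). Between Tubastatin A and vehicle 22 were higher and 12 lower, where 29.6% and 29.7% of all genes were called higher and lower. Of the 11 further Schwann markers 7 were higher and 1 lower with Tubastatin A, while Pmp22 was lower (-1.57). Named after their values were seen, H2-Ab1, an antigen-presenting MHC class II chain, averaged 5.60 RPKM in Tubastatin A cultures, 0.0416 RPKM in vehicle cultures and 2.83 RPKM in fresh cells, and Ccl5, a chemokine, averaged 17.5 RPKM in Tubastatin A cultures, 0.583 RPKM in vehicle cultures and 0.807 RPKM in fresh cells. Both were called higher with Tubastatin A than in vehicle (2.66 ± 0.16 and 3.58 ± 0.19) and than in fresh cells (0.82 ± 0.16 and 3.36 ± 0.19). They are not typical of the 10 further immune markers. With Tubastatin A, 4 of the 10 were higher and 0 lower than in vehicle, and 2 were higher and 5 lower than in fresh cells.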
